A study of Mus musculus with 3 samples.

Results

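The 10 genes described here encode the kinases that slow protein synthesis when a cell is short of heme or otherwise stressed, the transcription factors and phosphatase subunit that act after them, and a set of protein folding genes with their regulator. They were taken by name, Eif2ak1, Eif2ak2, Eif2ak3, Eif2ak4, Atf4, Ddit3, Ppp1r15a, Hspa8, Hspa9 and Hsf1 as a working set of this pathway. No signal value or threshold entered the choice, but it was made with earlier results of these data known. All 10 were found in the gene annotation, among 21911 protein-coding genes. For each gene the open chromatin at its start, the distal open regions in it or within 50 kb of any of its starts, and the protein footprints inside both were described.

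Red cell precursors make hemoglobin from heme and globin chains, and the chains must not be made faster than heme is supplied. The kinase HRI, the product of Eif2ak1, is held inactive by heme, and without heme it phosphorylates the translation factor eIF2, which lowers protein synthesis in the cell. The related kinases PKR (Eif2ak2), PERK (Eif2ak3) and GCN2 (Eif2ak4) phosphorylate the same factor in response to double-stranded RNA, to unfolded protein in the endoplasmic reticulum and to lack of amino acids. Phosphorylated eIF2 favours translation of ATF4, which activates stress genes such as Ddit3, and the product of Ppp1r15a, GADD34, brings a phosphatase back to eIF2. The chaperones encoded by Hspa8 and Hspa9 fold proteins in the cytosol and in mitochondria, and HSF1 activates chaperone genes after heat or other damage to proteins.

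DNase-seq, which maps accessible chromatin by where DNase I cuts it, was carried out on whole liver of mouse embryos at 13.5 days in 1 group of 3 biological replicates. The strain is given as C57BL/6N,129, and all replicates carry what the labels call an HS2 HS3 deletion with a HOM globin mutation, names known from enhancers of the β-globin locus. No unaltered liver is analysed here, so nothing below compares genotypes. The spread given with each value is over the replicates, and it includes shifts between replicates that most open genes share. The labels give the replicates separate biosample entries under a single donor entry, which names the strain, and do not state whether livers of several embryos were pooled.

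Peaks of the shorter deposited list, used throughout, numbered 28209, 57314 and 41319 in the replicates 1 to 3, so replicate 2 had the most. The signal of a peak is its highest cut density, scaled for each library by the authors. Depths of 79.4, 119.5 and 132.7 M cuts follow from the step between signal values if 1 step is 1 cut per 1 M cuts, but no source used here states the depth. The promoters of all 7 red cell markers were open in all 3 replicates, against 0 of 6 hepatoblast, 0 of 4 macrophage, 0 of 4 endothelial, 0 of 3 neutrophil and 1 of 3 mesenchymal markers, Col1a1. Single hepatoblast promoters did have peaks, 1, 4 and 0 of the 6 in replicates 1, 2 and 3, with summed signals of 0.731, 3.77 and 0. The albumin and α-fetoprotein genes had none in the shorter list. In whole tissue, a site that is open in fewer cells and a site that is less open in each cell cannot be told apart.

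The sequences that carry the results below came from the reference genome GRCm38.p6, the build of the files (mm10), and the promoters from the RefSeq table of that build, which held 7 of the 10 genes and none for Hspa8, Hspa9 and Hsf1. The first is an open region in an intron of Eif2ak1 (chr5:143819021-143819260, plus strand), shown because it was the strongest distal region common to the 3 replicates near any of the genes. Capitals mark TGATAA, a site of the kind that GATA factors bind, and TTCCGGAA, which reads as the ETS word CCGGAA on both strands.
Eif2ak1 intronic region: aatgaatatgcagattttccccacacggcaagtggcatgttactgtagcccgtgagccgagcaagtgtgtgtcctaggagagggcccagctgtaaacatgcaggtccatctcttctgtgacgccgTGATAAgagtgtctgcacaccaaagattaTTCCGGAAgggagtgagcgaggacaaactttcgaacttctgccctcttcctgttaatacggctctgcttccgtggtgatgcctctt
The next region lies upstream of Eif2ak3 (chr6:70811961-70812140, plus strand) and is shown because it held the other GATA match that overlapped a footprint in all 3 replicates. Capitals mark that match, which reads TGATAA on the minus strand.
Eif2ak3 upstream region: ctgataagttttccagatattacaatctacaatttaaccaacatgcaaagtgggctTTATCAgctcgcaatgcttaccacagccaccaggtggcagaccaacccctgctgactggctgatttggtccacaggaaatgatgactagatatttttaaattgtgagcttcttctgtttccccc

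Both regions that flank the Atf4 locus held the same word, CCAGGGGGC in capitals, which is of the kind that CTCF, a factor at chromatin loop ends, binds. The upstream stretch (chr15:80225391-80225451) is printed from the minus strand and the downstream stretch (chr15:80289582-80289642) from the plus strand.
Atf4 upstream flank: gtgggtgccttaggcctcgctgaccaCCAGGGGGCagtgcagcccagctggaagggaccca
Atf4 downstream flank: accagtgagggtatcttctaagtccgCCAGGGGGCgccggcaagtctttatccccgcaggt
The promoter of Ppp1r15a (chr7:45526269-45526328, minus strand) is shown for the cyclic AMP response element in capitals, the word TGACGTCA that factors of the CREB and ATF family bind.
Ppp1r15a promoter: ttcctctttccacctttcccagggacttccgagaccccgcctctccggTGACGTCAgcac

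The promoters of Eif2ak4 (chr2:118388367-118388616, plus strand) and Eif2ak2 (chr17:78882573-78882822, minus strand) are shown side by side because they had the highest and the lowest mean promoter signal of the 10 genes. Capitals mark every match that ends before the start to the KLF word CCNCNCCC or the GC box GGGCGG on either strand. The KLF and GC box words often overlap, as they do in the Eif2ak4 promoter.
Eif2ak4 promoter: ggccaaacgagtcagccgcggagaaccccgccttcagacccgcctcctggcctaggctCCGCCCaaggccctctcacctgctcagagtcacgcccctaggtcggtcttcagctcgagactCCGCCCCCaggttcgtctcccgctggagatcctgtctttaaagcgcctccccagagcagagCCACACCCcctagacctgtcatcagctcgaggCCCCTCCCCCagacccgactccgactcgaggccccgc
Eif2ak2 promoter: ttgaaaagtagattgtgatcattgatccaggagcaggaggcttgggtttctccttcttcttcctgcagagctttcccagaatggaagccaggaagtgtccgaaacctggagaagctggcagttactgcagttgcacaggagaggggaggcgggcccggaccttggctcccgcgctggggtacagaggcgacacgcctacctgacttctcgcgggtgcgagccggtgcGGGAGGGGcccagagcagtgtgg

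All 10 promoters were open in all 3 replicates, where open means a peak of the shorter list at most 500 bp away from a start of the gene. Of all 21911 protein-coding genes 50.9% were open by the same rule, and of the 12371 genes whose promoters are at least as rich in CpG dinucleotides as the poorest of the 10, 78.7% were. CpG-rich promoters are open in most cell types, and the ratio of observed to expected CpG in the 1 kb around the start ran from 0.457 at Eif2ak2 to 0.989 at Eif2ak3, against a median of 0.552 over all genes. The median of the 10 mean promoter signals was 10.8, against 5.59 over all 11146 open genes, and 9 of the 10 genes lay above 5.59.

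Among the 4 kinase genes the order was Eif2ak4, Eif2ak3, Eif2ak1 and Eif2ak2 in each of the 3 replicates, and by the mean the first and last of these were also the highest and lowest of the 10 genes. Eif2ak4 (ENSMUSG00000005102, chromosome 2, 118388618 to 118475234, plus strand) had a promoter signal of 11.0, 22.7 and 11.0 in replicates 1, 2 and 3, a mean of 14.9 ± 6.76 (SD, n = 3). It was the highest of the 10 genes in replicate 2 and level with Hspa8 at the top in replicate 3. In replicate 1 Hspa8, Ddit3 and Ppp1r15a were above it. Its peak was stronger than those of 93.9%, 98.8% and 94.3% of the open promoters in replicates 1, 2 and 3. Eif2ak3 (ENSMUSG00000031668, chromosome 6, 70844515 to 70905245, plus strand) had 8.59, 16.9 and 8.02, a mean of 11.2 ± 4.96.

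Eif2ak1 (ENSMUSG00000029613, chromosome 5, 143817788 to 143904251, plus strand), the gene of the heme-regulated kinase, had a promoter signal of 6.06, 11.5 and 6.21, a mean of 7.93 ± 3.12 (SD, n = 3). It therefore stood below Eif2ak4 and Eif2ak3 and above Eif2ak2. Its peak was stronger than those of 60.8%, 79.5% and 65.4% of the open promoters in the same replicates. Eif2ak2 (ENSMUSG00000024079, chromosome 17, 78852564 to 78882573, minus strand) had 4.50, 4.89 and 4.08, a mean of 4.49 ± 0.405, below the median of all open genes. It stood above 44.3%, 45.5% and 44.3% of the open promoters, and its 3 values did not overlap those of Eif2ak1 or of any other of the 10 genes. The ratio of the Eif2ak4 to the Eif2ak2 signal was 2.45, 4.65 and 2.70 in replicates 1, 2 and 3.

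Atf4 (ENSMUSG00000042406, chromosome 15, 80255184 to 80257541, plus strand) had a promoter signal of 9.88, 12.5 and 9.05, a mean of 10.5 ± 1.83 (SD, n = 3). Ddit3, which encodes CHOP, a factor linked to cell death under lasting stress (chromosome 10, 127290774 to 127296288, plus strand), had 11.9, 19.4 and 11.0, a mean of 14.1 ± 4.65. The annotation holds 2 records of Ddit3, ENSMUSG00000025408 and ENSMUSG00000116429, which were joined. Ppp1r15a (ENSMUSG00000040435, chromosome 7, 45522916 to 45526268, minus strand) had 11.4, 15.1 and 10.5, a mean of 12.4 ± 2.45. The order Ddit3, Ppp1r15a, Atf4 therefore held in each replicate, but the ranges of neighbours overlapped.

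Hspa8 (ENSMUSG00000015656, chromosome 9, 40800984 to 40810087, plus strand) encodes HSC70, the chaperone present without stress, and had a promoter signal of 12.5, 19.1 and 11.0, a mean of 14.2 ± 4.30 (SD, n = 3). Hspa9 (ENSMUSG00000024359, chromosome 18, 34937414 to 34954357, minus strand) encodes mortalin of the mitochondrial matrix and had 8.47, 12.7 and 7.26, a mean of 9.47 ± 2.85. Hsf1 (ENSMUSG00000022556, chromosome 15, 76477422 to 76501913, plus strand) had 8.29, 12.8 and 8.89, a mean of 9.997 ± 2.45. The cytosolic chaperone gene was thus the highest of these 3 in every replicate, and its range overlapped the range of each of the other two.

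In the order of the means, Eif2ak4, Hspa8, Ddit3, Ppp1r15a, Eif2ak3, Atf4, Hsf1, Hspa9, Eif2ak1 and Eif2ak2, the ranges of neighbours over the replicates overlapped in 8 of the 9 pairs, and Eif2ak1 against Eif2ak2 was the exception. Within replicates, Ddit3 was above Ppp1r15a, Hspa9 above Eif2ak1 and Eif2ak1 above Eif2ak2 in all 3, and the order of the other 6 pairs did not hold in all 3. All 10 genes had their highest value in replicate 2. The same was true of 75.3% of all open genes, and of 92.2% of those with a mean at or above that of Eif2ak2. The ratio of replicate 2 to replicate 1 ran from 1.09 at Eif2ak2 to 2.06 at Eif2ak4, against a median of 1.29 over all open genes. Over those with a mean at or above that of Eif2ak2 the median was 1.41. Replicate 2 was also the one with the most peaks and the most open hepatoblast promoters, and the part of these in the higher values was not tested.

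**Figure D1:**
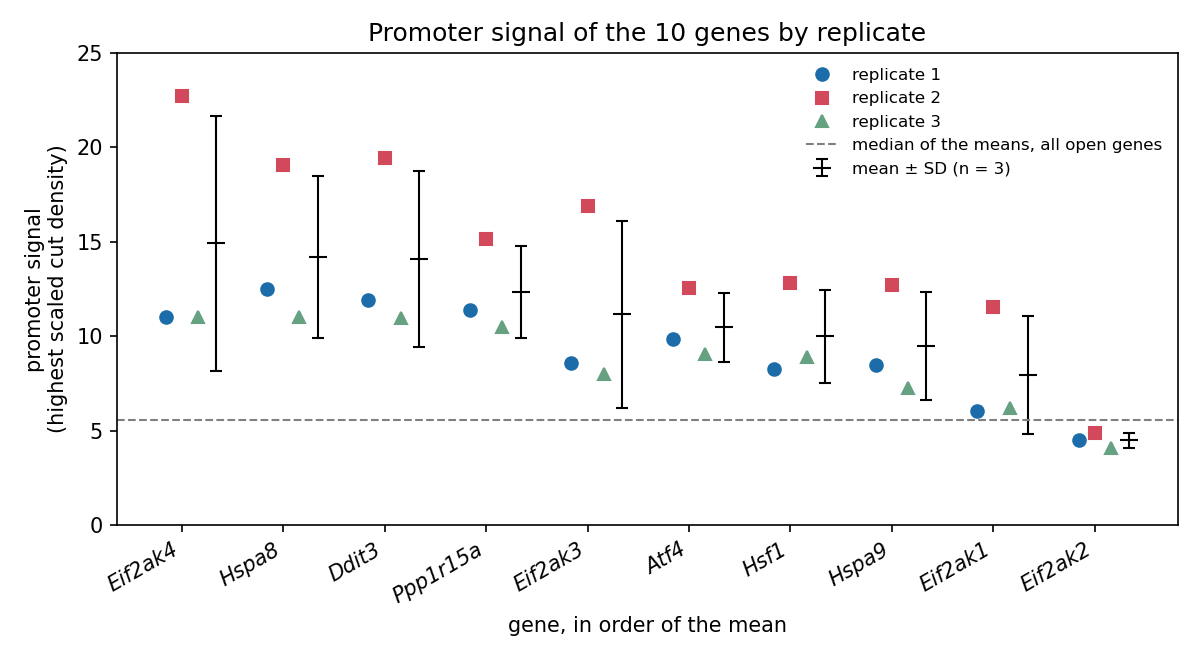
Promoter signal (highest scaled cut density, linear axis from 0) of the 10 genes in replicates 1, 2 and 3, with the mean ± SD (n = 3) beside the points and the median of the means over all open genes, 5.59, as a dashed line. The points of Eif2ak2 lie between 4.08 and 4.89, under the dashed line, and replicate 2 is the highest point of every gene.

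Some of these promoter regions serve more than 1 annotated start. The region at Ppp1r15a also reaches the start of Plekha4, and that at Hsf1 the start of Bop1, a gene of ribosome assembly that lies back to back with it. Gm4189, a noncoding transcript, starts within reach of the Ddit3 region and Gm26637, a lincRNA, within reach of the Eif2ak2 region. The peak lists carry no strand, so the signal of such a region cannot be divided between its starts. Besides the strongest region, 3 genes had a weaker open region after the start in all 3 replicates. At Atf4 it was centred 786 bp downstream and had signals of 2.51, 2.47 and 2.67, at Ddit3 426 bp downstream with 2.71, 2.90 and 2.25, and at Hsf1 408 bp downstream with 1.92, 1.33 and 1.44. Replicate 2 was not the highest of the 3 at Atf4 and Hsf1 in these weaker regions.

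Distal regions are those over 1 kb from any annotated start. Peaks of the replicates were joined where they shared a base, and 58 such regions lay in the 10 genes or within 50 kb of their starts. Of these, 17 had a peak in all 3 replicates and are called common, 14 had a peak in replicates 2 and 3 and not in replicate 1, and 27 in a single replicate, 22 of them in replicate 2 and 5 in replicate 3. Replicate 1, which had the fewest peaks, lacked 41 of the 58 in the shorter list. It had a peak of the longer list at 13 of these 41, and at 27 no base passed the limit of the false discovery rate file, 0.05.

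At least 1 common distal region was present at 7 of the 10 genes, against 45.9% of all protein-coding genes and 56.8% of those with an open promoter. Eif2ak2, Ddit3 and Hspa9 had none. Atf4 had 5, a number that 2.501% of all genes reach, Eif2ak3 had 4, reached by 5.25%, Ppp1r15a had 3, reached by 10.6%, and Hsf1 had 2, reached by 22.2%. Eif2ak1, Eif2ak4 and Hspa8 had 1 each. Several of these counts rest on replicate 1, which had the fewest peaks. With replicate 1 left out, the peaks of replicates 2 and 3 were joined anew. Regions common to both then numbered 8 at Eif2ak3, 7 at Atf4, 5 at Hspa8, 4 at Hsf1 and 3 at Ppp1r15a. There were 2 at Eif2ak4, 1 each at Eif2ak1, Eif2ak2 and Ddit3, and 0 at Hspa9. Of all protein-coding genes, 63.8% had at least 1 region by this count. For regions common to all 3 replicates the mean was 1.7 per gene, against 0.900 over all genes and 1.14 over open genes. The median of the mean signals was 2.28 near the 10 genes, against 1.76 over all 8810 common distal regions. A region within 50 kb need not act on the gene, and only 5 of the 17 had the start of the gene concerned as the nearest protein-coding start.

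**Figure D2:**
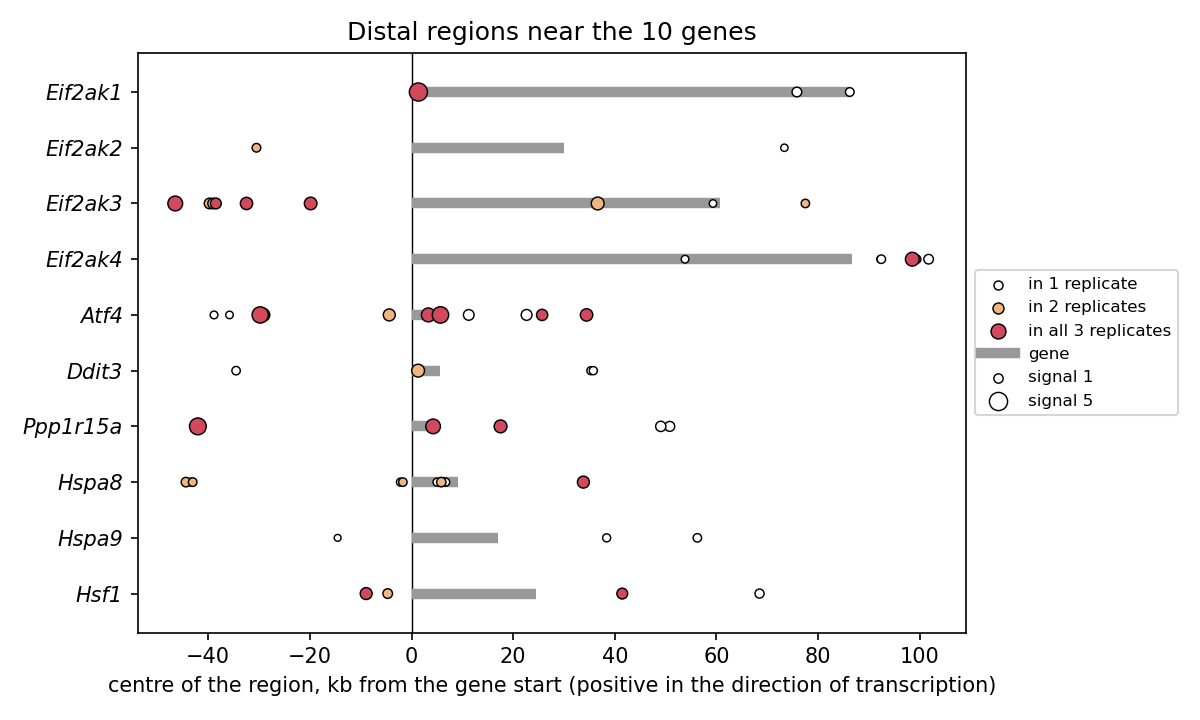
Distal open regions near each gene, by the distance of their centre from the gene start in kb, positive in the direction of transcription. Each circle is a region, filled by the number of replicates with a peak and sized by the mean signal of those peaks, and the grey bar is the gene. The single red circle inside a gene body is that of Eif2ak1, centred 1.35 kb after the start.

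The strongest was the intronic region of Eif2ak1 printed above, centred 1.35 kb after the start. It had signals of 3.77, 7.88 and 3.25 in replicates 1, 2 and 3, a mean of 4.97 ± 2.54 (SD, n = 3), which places it at rank 533 of the 8810 common distal regions. Replicate 2 was high here too, as at the promoter. The region had 62.2%, 68.4% and 52.4% of the signal of the Eif2ak1 promoter in the same replicates. It was the only one of the 17 common regions that lay inside a gene of the set, and its near edge is 1074 bp from the nearest protein-coding start, that of Eif2ak1, just past the limit of 1 kb.

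The other kinase genes differed in where their regions lay. All 4 common regions of Eif2ak3 were upstream. The strongest, centred at −46.5 kb from the start (chr6:70797941-70798120, intergenic, nearest to the start of Rpia), had 2.95, 3.46 and 3.07, a mean of 3.16 ± 0.269 (SD, n = 3). The region with the GATA match, at −32.5 kb, had 2.27, 2.02 and 1.86, a mean of 2.05 ± 0.205, so replicate 2 was not the highest there. An intronic region of Eif2ak3, 36.6 kb after the start, had 2.69 and 1.88 in replicates 2 and 3, and replicate 1 had a longer-list peak of 0.806. Only 76.6% of its 32-base words occur once in the genome, so part of its signal is uncertain. The common region of Eif2ak4 lay past the end of the gene, 98.5 kb after its first start (chr2:118487041-118487240, intergenic, nearest to the start of Srp14), with 2.46, 2.32 and 3.33, a mean of 2.70 ± 0.549. The nearest candidate at Eif2ak2, at −30.5 kb, was not common, with 0.778 in replicate 2, 0.829 in replicate 3 and a longer-list peak of 0.932 in replicate 1.

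Atf4 is a short gene of 2.36 kb and its 5 common regions lay on both sides of it. The strongest, centred 5.70 kb after the start in an exon of Rps19bp1 (chr15:80260781-80260980), had 3.82, 4.23 and 3.94, a mean of 3.997 ± 0.214 (SD, n = 3). The upstream flank, at −29.8 kb and intergenic (chr15:80225321-80225500), had 3.39, 3.84 and 4.52, a mean of 3.92 ± 0.569. The downstream flank, 34.4 kb after the start in an intron of Cacna1i (chr15:80289521-80289720), had 2.09, 2.02 and 2.19, a mean of 2.10 ± 0.0844. The flanks were highest in replicate 3, in contrast to the promoter. The downstream flank is 1987 bp from the start of Cacna1i, and is not distal if the limit is set at 2.5 kb. The remaining regions, 3.31 and 25.7 kb after the start, had means of 2.74 ± 0.810 and 1.65 ± 0.281.

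The strongest region near Ppp1r15a was at −42.03 kb, in an exon of the antisense transcript 0610005C13Rik and nearest to the start of Bcat2 (chr7:45568181-45568420), with 3.98, 4.63 and 4.03, a mean of 4.21 ± 0.359 (SD, n = 3). The others, 4.25 kb and 17.5 kb after the start, overlap the neighbouring gene Tulp2 and had means of 3.10 ± 0.343 and 2.28 ± 1.17. The one at 17.5 kb also lies in an exon of Nucb1, whose start is the nearest, 1415 bp away. Ddit3 had no common distal region, but an intronic region 1.30 kb after its start had 3.05 in replicate 2, 1.51 in replicate 3 and a longer-list peak of 1.42 in replicate 1.

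Around Hspa8 and Hsf1 the common distal regions lay near the median of all such regions, 1.76. The common region of Hspa8, 33.8 kb after the start and intergenic (chr9:40834701-40834900), had 1.89, 2.06 and 1.85, a mean of 1.93 ± 0.112 (SD, n = 3). The stronger region of Hsf1, at −8.92 kb in an intron of Bop1 (chr15:76468401-76468600), had 1.89, 1.95 and 1.88, a mean of 1.91 ± 0.0391, and the other, 41.5 kb after the start in an exon of Scrt1, had a mean of 1.49 ± 0.0703. Near Hspa9 the shorter list held 3 peaks, all in replicate 2. The values of these common regions of Hspa8 and Hsf1 differed far less between replicates than those of the promoters of the same genes. This did not hold for every common region of the set. At the promoters of the set the ratio of replicate 2 to replicate 1 ran from 1.09 at Eif2ak2 to 2.06 at Eif2ak4. The common regions spanned a wider range. Over the 17 common regions the ratio of replicate 2 to replicate 1 had a median of 1.11, with a range of 0.708 to 2.38, against 1.17 over all common distal regions.

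Footprints, short stretches within open chromatin that are protected from DNase, were counted when they lay wholly inside a region. The strongest promoter regions of the 10 genes held 76, 79 and 79 footprints in replicates 1, 2 and 3. Atf4 had 15, 14 and 14 in a region of 600 bp, a mean of 14.3 ± 0.577 (SD, n = 3), and 0.632% of the 9967 open promoter regions had as many. Hspa8 had 11, 12 and 12 in a region of 600 bp, and Hspa9 13, 8 and 11 in a region of 620 bp. Eif2ak4 had 8, 8 and 9 in 360 bp, Eif2ak3 7, 7 and 9 in 420 bp Eif2ak1 5, 9 and 9 in 300 bp and Ddit3 4, 7 and 5 in 240 bp. The lowest counts were those of Hsf1, with 6, 4 and 2, Ppp1r15a, with 4 in each replicate, and Eif2ak2, with 3, 6 and 4.

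Wider regions hold more footprints, and the median width was 330 bp at the 10 genes, against 280 bp over all open promoter regions. Per 100 bp the median was 1.88 footprints, against 1.78 over all. Sites footprinted in all 3 replicates numbered 11 at Atf4, 8 at Hspa8, 7 at Eif2ak4, 6 at Hspa9 and 4 each at Eif2ak1, Eif2ak3 and Ddit3, 3 at Ppp1r15a, 2 at Hsf1 and 1 at Eif2ak2. The common distal regions held 51, 63 and 51 footprints in all, with a median over regions of 3.33 per region, against 3 over all common distal regions.

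**Figure D3:**
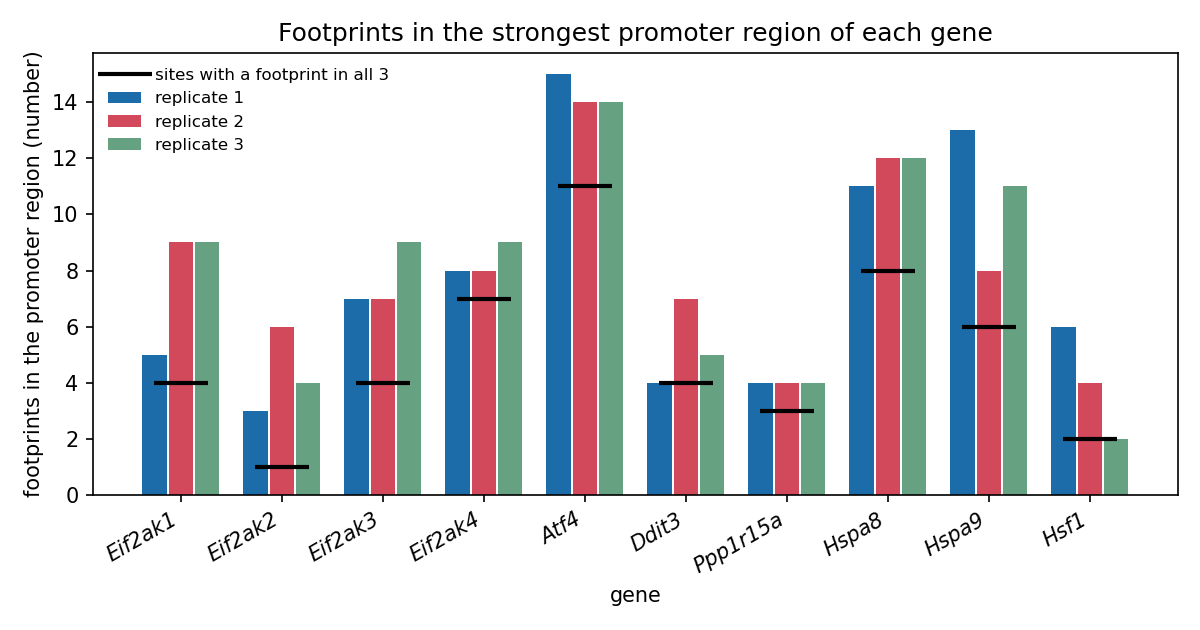
Number of footprints wholly inside the strongest promoter region of each gene in replicates 1, 2 and 3 (bars, from 0), with black lines for the number of sites that had a footprint in all 3. The bars of Atf4 stand at 15, 14 and 14, above those of the other 9 genes, and the line of Eif2ak2 stands at 1.

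The footprints were then set beside words known from transcription factors, searched on both strands in the 300 bp RefSeq promoters, which start 250 bp before the gene start and end 50 bp after it. A match is a description and not a site of binding, and positions count from the RefSeq start. Here a match is called footprinted where it overlaps a footprint, even if only in part. In the Ppp1r15a promoter printed above, the word TGACGTCA at −12 overlapped a footprint in all 3 replicates. It occurred in 3.61% of the 8853 open promoters of that table, and in 2.76% it was footprinted in all 3. Every KLF and GC box match of the Eif2ak4 promoter, from −192 to −4, overlapped a footprint in all 3 replicates. Such words are common, since 70.2% of the open promoters hold the KLF word and 68.0% the GC box. A KLF match was footprinted in all 3 replicates in 39.7% of the open promoters, and a GC box in 40.5%. The Eif2ak2 promoter held a single KLF match, at −23, with a footprint in replicates 1 and 2.

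Eif2ak1 had GC boxes at −62 and −44 that were footprinted in all 3 replicates, and the box at −44 overlaps a KLF match. The Eif2ak3 promoter held 5 words CCAAT, which the factor NF-Y is known to bind, and those at −85 and −20 were footprinted in all 3. Of the open promoters, 8.17% had a CCAAT word footprinted in all 3. At Ddit3 the longer ETS word CCGGAAGT at −200 overlapped a footprint in all 3 replicates. The shorter word CCGGAA inside it, at −198, did so in replicates 2 and 3 only. The longer word was footprinted in all 3 in 3.21% of the open promoters. KLF matches at −153 and −151, which overlap, were footprinted in all 3 replicates. So was a run of C that matches the KLF word at −55, −54 and −53. At Atf4 the words CCAAT at −117 and −76 and the word TGATAA at −39 had no footprint in any replicate. Its ETS words CCGGAA at −183 and 32 had a footprint in 2 replicates each. The GATA word AGATAA occurred in 2 of the 7 windows, against 5.89% of the open promoters. It lay at 7 in Ddit3, with a footprint in replicate 3 alone, and at −190 in Ppp1r15a, with a footprint in replicate 2 alone. With the other GATA words listed below, added after the data were seen, 3 of the 7 held a match, against 17.5%. The NF-E2 and AP-1 word TGAGTCA was in Ddit3, from −242, with a footprint in replicates 1 and 2. It occurs in 2.90% of the open promoters. The C/EBP-ATF word TGATGNAA, the NRF1 word GCGCNTGCG and the YY1 word AAGATGGCG were not in the letters of the 7 windows, nor were the heat shock element or the endoplasmic reticulum stress element, and these occur in 2.04%, 15.7%, 3.63%, 0.339% and 0.158% of the open promoters. An interferon element, searched after the data were seen because interferon is known to induce Eif2ak2, occurred there at 19, after the start, with a footprint in replicate 3 alone, and in Ppp1r15a at −220 with a footprint in replicate 2 alone. It occurs in 2.61% of the open promoters.

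Among the 17 common distal regions, the GATA word AGATAA occurred in 2, against 17.2% of all common distal regions, and neither was footprinted in all 3 replicates. With the word TGATAA, the word TGATAG and the word AGATAG added after the data were seen, 8 of the 17 held a match, against 35.2% of all. In 2 of the 17, the Eif2ak1 intron and the region at −32.5 kb from Eif2ak3, a match was footprinted in all 3 replicates, against 2.66% of all. The ETS word beside it in the Eif2ak1 intron had a footprint in replicate 2 alone. The second GATA match of the Eif2ak3 region, at base 2 of the printed sequence, had none. The word CNAGGGGGC of CTCF was in 2 of the 17, the flanks of Atf4, and was footprinted in all 3 replicates in both, against 9.66% of all regions with the word and 8.41% with it footprinted. No other form of the CTCF word was searched, so CTCF sites need not be confined to these flanks. The matches are on the minus strand upstream and on the plus strand downstream of Atf4, so they point away from each other.

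Genes that work with the 10 were examined in 5 lists of 59 genes in all, and 56 of these had an open promoter in all 3 replicates, against 50.9% of all genes. All 10 genes listed for the translation factors eIF2 and eIF2B and their phosphatase were open, with a median of the mean signals of 8.61. Ppp1cb, which encodes a catalytic subunit of that phosphatase, was the highest with 11.5, 21.9 and 12.3, a mean of 15.2. Eif2b4 followed with 11.3, 17.6 and 12.2, a mean of 13.7.

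The targets and partners of ATF4 and CHOP were the lowest list, with a median of 4.22 and 13 of 14 promoters open in all 3 replicates. Atf5, a related transcription factor gene, had 10.4, 14.7 and 11.3, and Sesn2, whose product restrains growth signalling, had 9.65, 17.3 and 9.52, both with a mean of 12.2. Vldlr, a lipoprotein receptor gene, had no shorter-list peak in replicate 1 and 0.343 and 0.512 in replicates 2 and 3, with a longer-list peak of 0.504 in replicate 1. The cystine transporter gene Slc7a11, with 0.643, 0.611 and 0.490, and Nupr1, with 1.07, 0.703 and 0.640, were open but low, and both were picked for mention after their values were seen. At Atf4 and Ddit3 themselves the signal was above most open promoters, while several of their targets were below the median of all open genes.

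All 10 genes of the endoplasmic reticulum stress list were open, and this list had the highest median, 12.7. Calr, a calcium-binding chaperone gene, had 10.8, 22.7 and 12.6, a mean of 15.4, and Dnajc3, whose product inhibits PERK, had 11.7, 18.9 and 11.8, a mean of 14.1. All 10 genes of the mitochondrial relay and chaperones were open, with a median of 9.88. Grpel1, the exchange factor of mortalin, had 8.59, 16.5 and 7.87, a mean of 11.0, and Oma1, the protease that starts the mitochondrial signal to HRI, had 8.44, 13.8 and 9.62, a mean of 10.6. Hspd1 and Hspe1 share a promoter region and thus a value.

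Of the 15 genes of the cytosolic heat shock list 13 were open in all 3 replicates, with a median of 9.53. Dnajb1, a partner of HSC70, had 13.9, 26.1 and 15.1, a mean of 18.4, and Bag1, an exchange factor of HSC70, had 13.96, 26.2 and 13.8, a mean of 18.0. Both were above the mean of Hspa8. The stress-inducible Hspa1a had 1.56 and 2.14 in replicates 2 and 3, and in replicate 1 only a longer-list peak of 1.12. Hspa1b of the same list was open in all 3 replicates, with 1.92, 2.53 and 3.36. Hspb1 had no promoter peak in either list. Part of the sequence at both genes also occurs elsewhere, and only 41.4% of the 32-base words around the start of Hspa1a and 61.8% of those around Hspb1 occur once in the genome, so their values are uncertain.

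**Figure D4:**
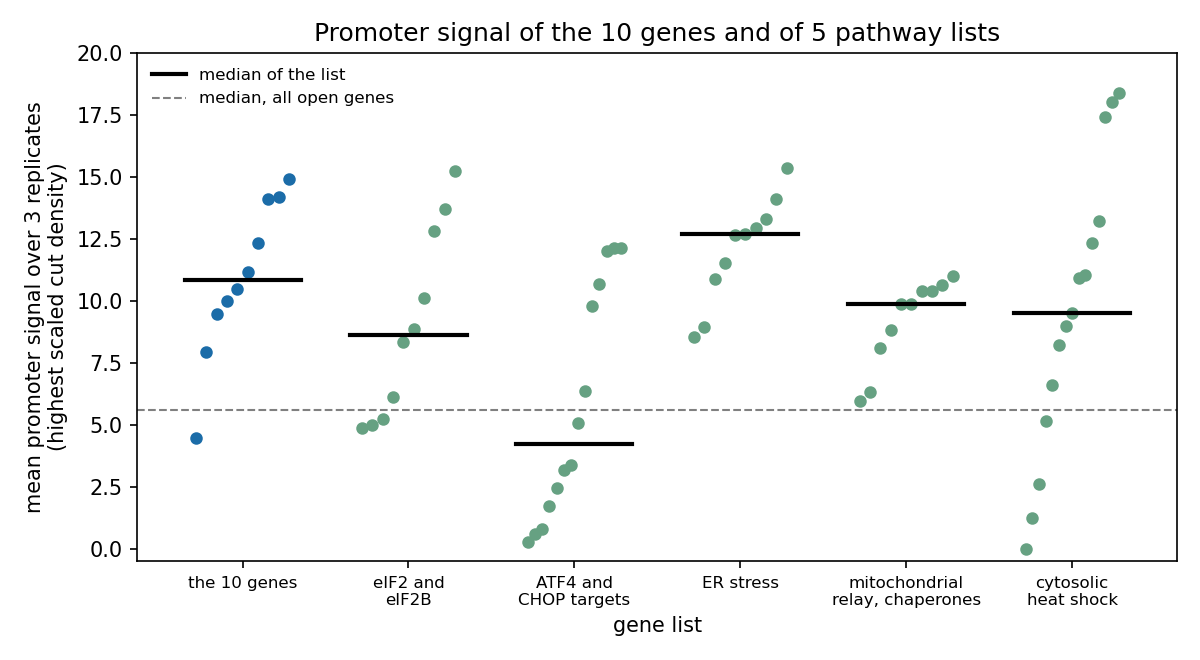
Mean promoter signal over the 3 replicates (highest scaled cut density) of the 10 genes and of the genes in each of 5 pathway lists, each point a gene in ascending order, with the list median as a black line and the median of all open genes, 5.59, dashed. The medians stand at 10.8 for the 10 genes, 8.61, 4.22, 12.7, 9.88 and 9.53 for the lists from left to right, and genes with no promoter peak in a replicate enter with 0 there.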

How the data were processed

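DNase-seq peak lists, footprints and false discovery rates of 3 replicates in 1 group were used. Per the notes deposited beside the files, each sample's files were made separately from its own mm10 alignments. The aligner and callers were not given in the sources used here. As deposited by the authors, the peak signal is the highest cut density, scaled per library. The false discovery rates, a p-value type of measure deposited by the authors, are listed below 0.05, and all footprints carry the same q-value, 0.01, and were counted, not ranked. Starts came from GENCODE M21, with 27 symbols joined from several records. Sequences came from GRCm38.p6. Peaks were joined where they shared 1 bp. The named genes are the 10, the 2 highest of each pathway list, those without a shorter-list promoter peak in a replicate, and the strongest common distal region near each gene. Any other gene or region was named after its values were seen. Genes and lists were chosen with earlier results of these data known. With 1 group and no control, no test was made. Interval joins and motif searches were tested on simulated data (Python 3.11.15, pandas 2.3.3, numpy 2.4.6, pysam 0.24.0). Other peak lists, windows, distances, joins and left-out replicates were tried.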

Additional observations from a re-analysis of the deposited data

How the results depend on the processing

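No paired analysis was possible because there is 1 group. All 10 promoters stayed open under every alternative tried, and promoter footprint totals stayed within 1.5 times. Of 80 recomputed promoter signals of single genes 50 equal the reported value, since the same strongest peak was found, so they are no sign of stability. The share of all genes that were open, 50.9%, was 55.7% with the longer list, 46.0% with only the outermost start of a gene and 41.8% with the upper 50% of peaks, and 51.0% to 54.3% with a replicate left out. The 17 common distal regions near the genes (1.7 per gene) became 29 (2.9) with the longer list, 8 (0.8) within 25 kb, 32 (3.2) within 100 kb and, by a count added after the data were seen, 5 whose nearest protein-coding start is that of the gene concerned. With a replicate left out they numbered 17 to 32 (1.7 to 3.2), the share of all genes with such a region was 45.9% in full and 46.1% to 63.8%, and their footprints, a mean of 55 in full, were 49 to 99.5. The upper ends are without replicate 1, which had the fewest peaks. With distal set at over 2.5 kb, the regions of Eif2ak1 and Ppp1r15a and the downstream flank of Atf4 no longer counted. Of 80 recomputed distal counts of single genes 25 moved. The 3 replicates without a stated depth limit the precision, and a site with no peak may still be open below the callers' limit.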
